A study of Homo sapiens with 3 samples.

Results

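The genes described here are 45 genes of mitosis and of the G2/M phase of the cell cycle, measured in HaCaT cells, an established, spontaneously immortalized line of human epidermal keratinocytes. They were listed by name and share roles in mitosis, and the list was drawn up with earlier results of these data known. Of the 45, 41 were found by the gene name in the annotation of the arrays, where CDK1 still carries its older name CDC2. The condensin genes NCAPG, NCAPH, SMC2 and SMC4 stand there under older names and were found by their Entrez gene number. Together they are read by 90 transcripts, out of 23595 genes and 42947 named transcripts in all. RNA was measured on 3 single-colour arrays with 1 array per group. The groups are cells given retinoic acid in its all-trans form (ATRA, made in the body from vitamin A) together with nicotinamide (NIC, the amide of vitamin B3), cells given ATRA alone, and a control for which no agent is named. The treatment protocol names 1 µM ATRA for 36 h and does not mention NIC, so the NIC dose and timing are not known here. No array of NIC alone is among the samples. By its title, the study asked about genes linked to the barrier function of the epidermis.

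Mitotic genes are transcribed late in the cell cycle. In resting cells and in early phases their promoters are held silent by the DREAM complex, which joins a pocket protein, E2F4 and the MuvB core, and in late phases the MuvB core pairs with B-MYB (gene MYBL2) and FOXM1 to activate the same promoters. Both complexes bind through a short element called the CHR (cell cycle genes homology region), often with CCAAT boxes nearby, which bind the factor NF-Y. In the epidermis these genes are active in dividing basal and transit-amplifying keratinocytes and are switched off as cells leave the cycle to differentiate. In RNA of a whole culture, fewer cells in the phase that transcribes a gene and less RNA per cell cannot be told apart.

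Values are log2 of the deposited intensity, averaged over the transcripts of a gene and called the gene level, and a difference is the level on the first-named array minus the level on the second. With 1 array per group there is no replicate error and no test, and each difference describes these arrays only. The random probes lay at intensities of 18.4 to 19.6 and the median transcript at 297.9 to 302.3 over the 3 arrays. All 15 keratinocyte markers looked up passed the filter, that is, reached the median level of all genes and arrays (7.95) on at least 1 array, with summed intensities of 124643 under ATRA+NIC, 151163 under ATRA and 178185 in the control. Bright genes weigh most in such a sum, such as KRT5 with 10009, 10041 and 29746 on these arrays. Of the 15 markers, 7 were higher and 8 lower in ATRA than in control cells, with a median difference of −0.06. In ATRA+NIC cells 4 were higher and 11 lower than in ATRA cells, with a median of −0.30 (44.2% of all genes lower). Against the control 4 were likewise higher and 11 lower in ATRA+NIC cells, with a median of −0.49 (51.2% of all genes lower). Of 7 fibroblast markers, 4 lay under an intensity of 50 on all arrays, as did 2 of 6 melanocyte and 3 of 5 endothelial markers. The summed intensities of the fibroblast markers were 585 under ATRA+NIC, 553 under ATRA and 572 in the control, and those of the melanocyte markers 573, 475 and 354. The endothelial markers summed to 3370 under ATRA+NIC, 2649 under ATRA and 330 in the control, most of it on each array from CDH5, the VE-cadherin gene. CDH5 had levels of 11.67 under ATRA+NIC, 11.31 under ATRA and 7.70 in the control, 12.1-fold higher in ATRA than in control cells and 15.6-fold higher in ATRA+NIC than in control cells. Leukocyte markers had the opposite order to the mitotic genes. All 6, of which 4 passed the filter, were higher on the ATRA array than on the control array (45.6% of all genes passing it). All 6 were lower on the ATRA+NIC array than on the ATRA array (44.2%), CD14 by only 0.06. ITGAM lay at intensities of 33.6 to 52.5, and 2 of its 3 transcripts were lower under ATRA than in the control. CD3E had levels of 6.14 under ATRA+NIC, 8.97 under ATRA and 7.97 in the control, and CD79A had 6.79, 8.25 and 6.90. The summed intensities of the 6 were 2905 under ATRA+NIC, 4754 under ATRA and 2409 in the control. Most of that sum was CD68, with levels of 11.19 under ATRA+NIC, 11.73 under ATRA and 10.79 in the control. The pan-leukocyte marker PTPRC stood at 4.21 under ATRA+NIC, 7.24 under ATRA and 5.07 in the control, the first of these near the level of the random probes. The part of these markers in the results below was not tested.

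The mitotic genes had their lowest level of the 3 arrays on the ATRA array, with 1 exception. This held for 44 of 45 genes, against 43.6% of the 12467 genes passing the filter. The exception was BUB3, which was lowest on the control array. All 45 passed the filter on every array, since the lowest level of any of them was 8.54. No gene was lowest on the ATRA+NIC array, and 1 was lowest on the control array (28.2% of all genes for each array). The highest level lay on the ATRA+NIC array for 21 genes (32.8% of all genes), on the control array for 24 (33.8%) and on the ATRA array for none (33.4%).

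**Figure D1:**
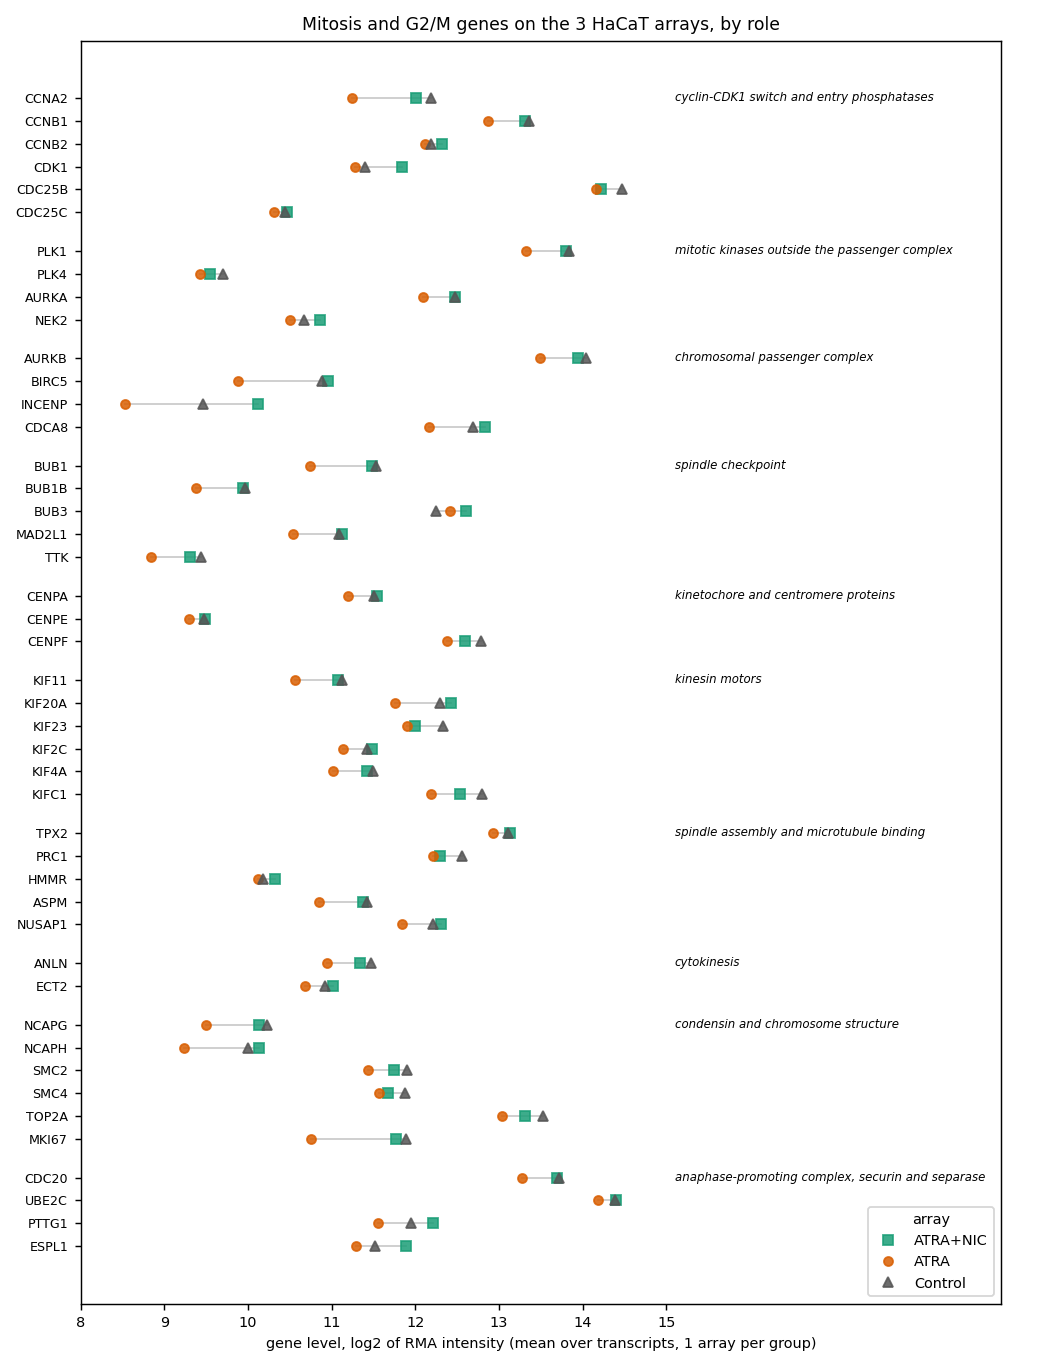
Gene level (log2 intensity, x axis) of the 45 mitosis and G2/M genes on the ATRA+NIC array (square), the ATRA array (circle) and the control array (triangle), in rows grouped by role. The circle is the leftmost symbol in every row but that of BUB3, and square and triangle lie close together in most rows.

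Between ATRA-treated cells and the control, 44 genes were lower and 1 was higher, with a median difference of −0.45 and a range of −1.14 to 0.17. Among all genes passing the filter, 54.4% were lower, 45.6% were higher and the median was −0.04. Of the 8756 genes within the range of mean levels that the mitotic genes span, 55.3% were lower and 44.7% higher. The size of the differences was modest. Only MKI67 was at least 2-fold lower (2.06% of all genes), and 9 genes were at least 1.5-fold lower (8.99% of all genes). None was 1.5-fold higher (9.9% of all genes).

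Between cells given ATRA with NIC and cells given ATRA alone, all 45 genes were higher, against 55.8% of all genes passing the filter and 56.9% of those in the same range of levels. The median difference was 0.41, with a range of 0.07 to 1.59, beside 0.05 for all genes. INCENP, BIRC5 and MKI67 were at least 2-fold higher (1.35% of all genes), and 11 genes were at least 1.5-fold higher (7.88% of all genes). None was 1.5-fold lower (9.47% of all genes). Both comparisons use the ATRA array, so a low reading of that array enters each of them. The comparison of ATRA+NIC with the control does not use that array. It gave 21 genes higher (48.8% of all genes) and 24 lower (51.2%), with a median of −0.03 and a range of −0.33 to 0.66. In the range of levels of the mitotic genes 49.6% were higher and 50.4% lower. No mitotic gene was 2-fold higher (1.03% of all genes) or 2-fold lower (0.971%), and none was 1.5-fold lower (3.87%). In it 37 of 45 genes lay within 0.25 of the control level, a limit chosen after the values were seen, as did 62.3% of all genes.

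**Figure D2:**
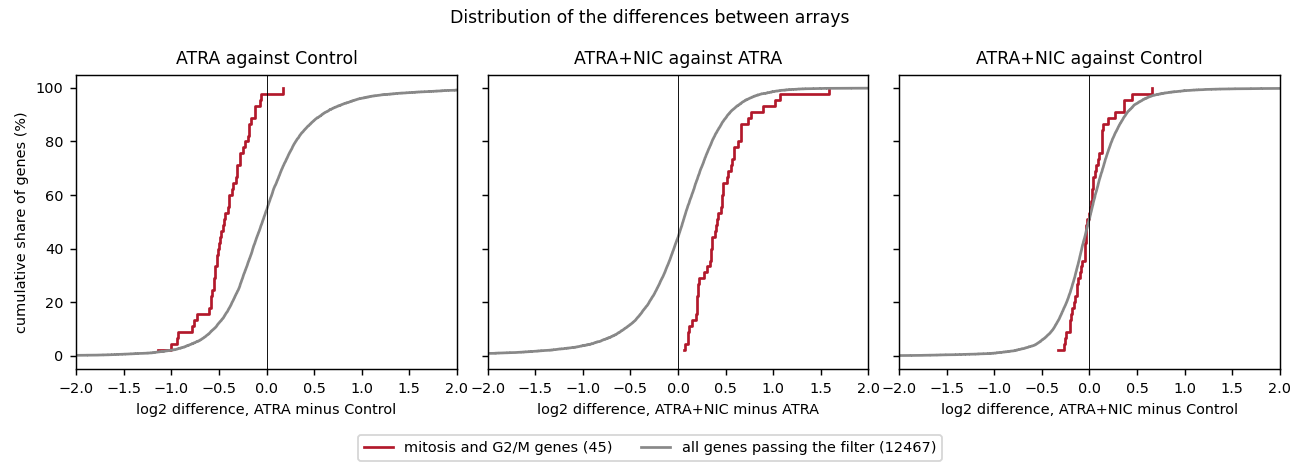
Cumulative share of genes (y axis, percent) against the log2 difference (x axis, shown from −2 to 2) for the 45 mitosis and G2/M genes and for the 12467 genes passing the filter, in 3 comparisons. The curve of the mitotic genes lies left of that of all genes for ATRA against control (medians −0.45 and −0.04), right of it for ATRA+NIC against ATRA (0.41 and 0.05), and around it for ATRA+NIC against control (−0.03 and −0.01).

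Entry into mitosis is driven by CDK1 with its cyclins, and the CDC25 phosphatases remove the inhibitory phosphates from CDK1. Of these 6 genes, CCNA2, the gene of cyclin A2, which acts from S phase until early mitosis, stood out in size. Its level was 12.01 under ATRA+NIC, 11.25 under ATRA and 12.19 in the control. ATRA was thus 1.92-fold lower than control, and ATRA+NIC was 1.70-fold higher than ATRA. The gene lies on chromosome 4 at 122957974 to 122964342 in the hg18 annotation of the files, as do all chromosome positions of genes below. CCNB1, which encodes the main mitotic cyclin, had levels of 13.32 under ATRA+NIC, 12.86 under ATRA and 13.36 in the control, a difference of −0.50 for ATRA against control. The other B-type cyclin gene, CCNB2, hardly differed between these arrays, at 12.12 on the ATRA array and 12.19 on the control array. CDK1 itself had levels of 11.84 under ATRA+NIC, 11.28 under ATRA and 11.40 in the control. It was thus close to control under ATRA (difference −0.12) and above it under ATRA+NIC (difference 0.45). The CDC25 genes differed least of the group between ATRA+NIC and ATRA. CDC25B was lower by 0.31 on the ATRA array than on the control array, and its difference between ATRA+NIC and ATRA, 0.07, was the smallest of all 45. CDC25C had differences of −0.12 in ATRA cells against control and 0.15 in ATRA+NIC cells against ATRA.

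The chromosomal passenger complex joins the kinase Aurora B (gene AURKB) with the scaffold INCENP, survivin (BIRC5) and borealin (CDCA8). It corrects faulty attachments of chromosomes to the spindle and later acts in cytokinesis. Its 4 genes had the largest median differences of the 10 roles, −0.74 in ATRA cells against control and 0.87 in ATRA+NIC cells against ATRA, beside −0.45 and 0.41 for all 45. INCENP, on chromosome 11 at 61648020 to 61676800, had levels of 10.12 under ATRA+NIC, 8.54 under ATRA and 9.46 in the control. It was 1.90-fold lower in ATRA than in control cells and 3.00-fold higher in ATRA+NIC than in ATRA cells, and it was the only member at least 1.5-fold above control on the ATRA+NIC array (1.58-fold, against 3.96% of all genes). Its transcripts differed on that last point. One had intensities of 1476 under ATRA+NIC, 333.1 under ATRA and 652.6 in the control, and the other had 839.1, 413.1 and 764.7. Both were lowest under ATRA, and only the first was well above control under ATRA+NIC.

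Survivin is both a passenger protein and an inhibitor of apoptosis proteins family member. BIRC5, on chromosome 17 at 73721871 to 73733311, had levels of 10.95 under ATRA+NIC, 9.88 under ATRA and 10.88 in the control. The 4 transcripts of BIRC5 were all lowest on the ATRA array. The bright transcripts had intensities of 4073, 4701 and 5655 under ATRA+NIC, 2160, 3130 and 3274 under ATRA and 3629, 5033 and 6260 in the control. The remaining one was dim, at 141.7 under ATRA+NIC, 35.5 under ATRA and 109.9 in the control. That dim value was also set to 50, the lowest intensity that the authors keep in their value table. ATRA was then at least 1.84-fold lower than control and ATRA+NIC at least 1.93-fold higher than ATRA. Without that step BIRC5 was 1.9997-fold lower, just under the 2-fold limit, and 2.10-fold higher in these comparisons. AURKB was lower by 0.55 under ATRA than in control cells, and CDCA8, at 12.83 under ATRA+NIC, 12.16 under ATRA and 12.68 in the control, was 1.59-fold higher in ATRA+NIC than in ATRA cells.

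Among mitotic kinases outside that complex, PLK1, which drives centrosome maturation and mitotic entry, had levels of 13.80 under ATRA+NIC, 13.32 under ATRA and 13.83 in the control. AURKA, the gene of the spindle pole kinase Aurora A, differed by −0.39 in ATRA cells against control and 0.39 in ATRA+NIC cells against ATRA. Averaged over its transcripts it was level with the control under ATRA+NIC, where single transcripts differed by 0.16 and −0.17. NEK2, a kinase gene of centrosome separation, and PLK4, a kinase gene of centriole duplication, differed by −0.16 and −0.28 for ATRA against control.

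The spindle checkpoint holds cells in metaphase until every kinetochore is attached. BUB1, a checkpoint kinase gene on chromosome 2 at 111111880 to 111152135, had levels of 11.48 under ATRA+NIC, 10.74 under ATRA and 11.53 in the control. It was 1.72-fold lower in ATRA than in control cells and 1.66-fold higher in ATRA+NIC than in ATRA cells. TTK, which encodes the kinase MPS1 at the top of the checkpoint, had levels of 9.30 under ATRA+NIC, 8.84 under ATRA and 9.43 in the control. MAD2L1 and BUB1B, whose products block the anaphase-promoting complex, differed by −0.54 and −0.58 for ATRA against control and by 0.58 and 0.56 in ATRA+NIC cells against ATRA. In all 4 of these genes the ATRA array was lowest.

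BUB3, which encodes the adaptor that brings BUB1 and BUBR1 to kinetochores, had another order. Its levels were 12.60 under ATRA+NIC, 12.41 under ATRA and 12.24 in the control. One of its transcripts had intensities of 7647 under ATRA+NIC, 6653 under ATRA and 6265 in the control, and the other had 5036, 4460 and 3741. Both transcripts gave the same order of the arrays.

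The kinetochore and centromere genes among the 45 are CENPF, CENPA and CENPE, and none reached 1.5-fold. CENPF, a kinetochore protein gene used as a G2/M marker, was lower by 0.40 on the ATRA array than on the control array. CENPA, the gene of the centromeric histone H3 variant, was lower by 0.32, and CENPE, the gene of a kinetochore motor, by 0.19. All 3 were higher in ATRA+NIC than in ATRA cells, by 0.20 to 0.36.

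The kinesin motors build and move the spindle. Their 6 genes were lower under ATRA than in control cells by a median of 0.51 on the log2 scale. KIFC1, a minus-end-directed kinesin gene that bundles spindle poles, had levels of 12.54 under ATRA+NIC, 12.19 under ATRA and 12.79 in the control, 1.52-fold lower for ATRA against control. KIF20A, a cytokinesis kinesin gene, had levels of 12.42 under ATRA+NIC, 11.76 under ATRA and 12.30 in the control, 1.59-fold higher for ATRA+NIC against ATRA. KIF11, the gene of the motor Eg5 that pushes spindle poles apart, differed by −0.56 in ATRA cells against control and 0.52 in ATRA+NIC cells against ATRA. KIF4A and KIF2C, genes of a chromosome-bound motor and of a microtubule depolymerase, differed by −0.48 and −0.28 for ATRA against control.

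KIF23, the kinesin gene of the centralspindlin complex, had another pattern than KIF20A. Its levels were 12.00 under ATRA+NIC, 11.90 under ATRA and 12.33 in the control, so that it was 1.26-fold below control on the ATRA+NIC array, the lowest of the 45 differences there. PRC1, which crosslinks microtubules of the same central spindle, had a like pattern, with levels of 12.29 under ATRA+NIC, 12.21 under ATRA and 12.56 in the control. Other spindle genes lay nearer to the control under ATRA+NIC. ASPM, a spindle pole gene, differed by −0.57 in ATRA cells against control and 0.53 in ATRA+NIC cells against ATRA, and NUSAP1, a microtubule-bundling gene, by −0.37 and 0.47. TPX2, the Aurora A activator gene, differed by −0.19 and 0.21 in these comparisons, and HMMR, which encodes a hyaluronan-binding spindle protein, by −0.06 and 0.20. Of the cytokinesis genes, ANLN, which encodes the actin-binding protein anillin, differed by −0.52 for ATRA against control and ECT2, the gene of the exchange factor that activates RhoA at the cleavage furrow, by −0.24.

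MKI67, which encodes the Ki-67 protein that coats mitotic chromosomes and serves as a proliferation marker, had the largest difference between ATRA and control. This gene, on chromosome 10 at 129784912 to 129814458, is read by a single transcript with intensities of 3487 under ATRA+NIC, 1718 under ATRA and 3782 in the control. It was 2.20-fold lower in ATRA than in control cells and 2.03-fold higher in ATRA+NIC than in ATRA cells. The condensin complexes compact chromosomes. Of the members, NCAPH and NCAPG encode non-SMC subunits of condensin I, with NCAPH at levels of 10.13 under ATRA+NIC, 9.24 under ATRA and 10.00 in the control, and NCAPG at 10.13, 9.50 and 10.23 on the same arrays. NCAPH was 1.70-fold and NCAPG 1.66-fold lower in ATRA than in control cells. One of the 2 transcripts of NCAPH had intensities of 6546 under ATRA+NIC, 4927 under ATRA and 8359 in the control, and the other had 193.1, 73.9 and 126.2. Only the second exceeded control on the ATRA+NIC array. The genes of the SMC ATPase subunits, shared by both condensins, had differences of −0.46 for SMC2 and −0.31 for SMC4 for ATRA against control. NCAPD2, which encodes another non-SMC subunit of condensin I, is no member and is named after its value was seen. It differed by −0.26, less than either SMC gene when averaged over transcripts. Single transcripts differed by −0.21 and −0.70 for SMC2 and by −0.06 and −0.55 for SMC4. TOP2A, the gene of the topoisomerase that untangles sister chromatids, differed by −0.49 in ATRA cells against control and 0.28 in ATRA+NIC cells against ATRA.

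Exit from mitosis needs the anaphase-promoting complex, which marks securin and the cyclins for destruction and so frees separase to cut cohesin. CDC20, its mitotic activator gene, differed by −0.45 in ATRA cells against control and 0.42 in ATRA+NIC cells against ATRA, and UBE2C, which encodes its ubiquitin-conjugating enzyme, by −0.20 and 0.22. PTTG1, the securin gene, had levels of 12.21 under ATRA+NIC, 11.55 under ATRA and 11.94 in the control. ESPL1, the separase gene, had levels of 11.89 under ATRA+NIC, 11.29 under ATRA and 11.52 in the control. These were 1.58-fold and 1.51-fold higher in ATRA+NIC than in ATRA cells. Both also stood above control on the ATRA+NIC array, by 0.27 for PTTG1 and 0.37 for ESPL1.

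Single transcripts show how far the values behind each gene level agree. They are no independent reading, since the gene level is their average. For the 13 genes with 1 transcript, that transcript is the gene level itself. Of the 90 transcripts, 85 were lower in ATRA than in control cells and 87 were higher in ATRA+NIC than in ATRA cells. The share over all transcripts is not given for these counts. Several transcripts read 32 of the 45 genes. Of their 77 transcripts, 72 were lower in ATRA than in control cells, against 10178 of 18897 for all such genes passing the filter. For ATRA+NIC against ATRA 74 of the 77 were higher, against 10099 of 18897. All transcripts were lower in ATRA than in control cells for 29 of these 32 genes, or 90.6%, against 35.6% of the 7074 genes with several transcripts that passed the filter. For ATRA+NIC against ATRA all transcripts were higher for 29 of 32, or 90.6%, against 36.6%. Between transcripts of a member the differences had a pooled SD of 0.23 for ATRA against control, 0.28 for ATRA+NIC against ATRA and 0.21 for ATRA+NIC against control. This scatter is no replicate error, since transcripts of a gene share the RNA sample and in part their sequence. The transcripts against the direction were both of BUB3, 1 of CDK1 and 2 of the 8 of UBE2C for ATRA against control, and 1 each of CDC25B, PLK4 and SMC4 for ATRA+NIC against ATRA. When the brightest transcript stood for each gene, UBE2C and CDK1 joined BUB3, so that 3 genes were higher in ATRA than in control cells. At least 1.5-fold lower were 14 in place of 9. The share of all genes under that setting is not given here, so this rise is not read as particular to the members. With that setting PLK4 and SMC4 were lower in ATRA+NIC than in ATRA cells.

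**Figure D3:**
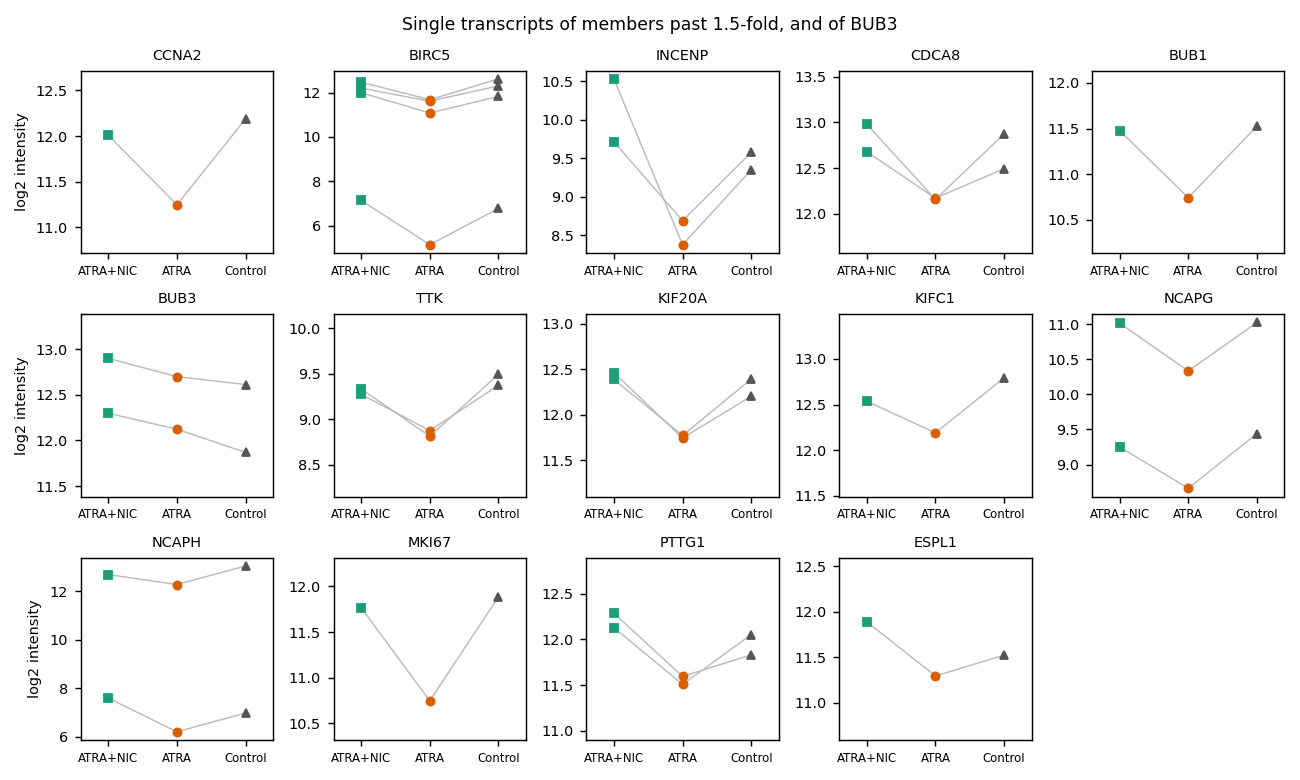
Log2 intensity (y axis) of each transcript on the ATRA+NIC, ATRA and control arrays (x axis), with a line per transcript, for the 13 members that differed at least 1.5-fold in ATRA against control or in ATRA+NIC against ATRA, and for BUB3. Every line has its lowest point on the ATRA array except the 2 of BUB3, which are lowest on the control array.

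The promoters of these genes were read for what they share beside the arrays. The sequences below show the 120 bases before the annotated start of the members that differed at least 1.5-fold both in ATRA against control and in ATRA+NIC against ATRA and have 1 entry in the promoter table. They are from RefSeq, build GRCh38.p14, 5′ to 3′ on the gene's strand, and capitals mark the CHR letters TTTGAA or TTCGAA and CCAAT boxes, each on either strand (TTCAAA and ATTGG when reversed).
CCNA2 (chr4:121823884-121824003, minus strand): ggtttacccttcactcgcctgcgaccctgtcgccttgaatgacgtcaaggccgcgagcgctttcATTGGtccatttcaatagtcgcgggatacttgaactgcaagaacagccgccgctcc
INCENP (chr11:62123891-62124010, plus strand): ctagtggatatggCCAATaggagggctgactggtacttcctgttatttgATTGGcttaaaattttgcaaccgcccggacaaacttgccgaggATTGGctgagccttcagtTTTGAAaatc
BUB1 (chr2:110678064-110678183, minus strand): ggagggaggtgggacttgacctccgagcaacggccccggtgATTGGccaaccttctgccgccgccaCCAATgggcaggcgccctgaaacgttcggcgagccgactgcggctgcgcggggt
NCAPG (chr4:17810859-17810978, plus strand): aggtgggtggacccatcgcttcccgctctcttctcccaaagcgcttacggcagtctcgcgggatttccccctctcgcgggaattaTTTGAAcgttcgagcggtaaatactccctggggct
NCAPH (chr2:96335646-96335765, plus strand): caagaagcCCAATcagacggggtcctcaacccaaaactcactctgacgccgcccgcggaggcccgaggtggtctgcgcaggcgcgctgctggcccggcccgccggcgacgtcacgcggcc
MKI67 (chr10:128126424-128126543, minus strand): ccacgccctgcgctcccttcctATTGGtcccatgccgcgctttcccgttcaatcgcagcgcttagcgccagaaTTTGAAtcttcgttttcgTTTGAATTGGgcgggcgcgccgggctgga

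INCENP carries TTTGAA with its first base 10 bases before the start and 3 CCAAT boxes, and MKI67 has TTTGAA at 47 and 29 bases before the start with CCAAT boxes, in reverse, at 98 and 24. The box at 24 shares a base with the second TTTGAA. NCAPG has TTTGAA at 35 bases before the start and no CCAAT box in these 120 bases, while BUB1 has 2 CCAAT boxes there and its TTCGAA lies just after the start. In the windows of CCNA2 and NCAPH only CCAAT boxes were found among the letters searched. Forms of the CHR other than TTTGAA and TTCGAA were not searched for.

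Of the 45 genes, 39 had promoters in the table, 53 entries in all, each covering 250 bases before to 50 bases after a start. AURKA, BIRC5, BUB3, TTK, TPX2 and UBE2C are not among them. TTTGAA or TTCGAA was present in 62.3% of the 53 promoters, against 16.4% of the 35116 promoters of all genes. CCAAT was present in 69.8%, against 34.6%, and 2 or more CCAAT boxes in 39.6%, against 10.8%. Both motifs were present in 49.1%, against 6.38%. A match is a run of letters and not a shown binding site. The 30 genes with TTTGAA or TTCGAA in a promoter had a median difference of −0.45 for ATRA against control, and the 9 without these letters had −0.50. Whether those 9 carry another form of the CHR was not looked at.

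The regulators that act on such promoters were looked at in a list of 13 genes, of which 10 passed the filter. MYBL2 had levels of 14.53 under ATRA+NIC, 13.88 under ATRA and 14.77 in the control, a difference of −0.90 for ATRA against control. FOXM1 had levels of 13.67 under ATRA+NIC, 12.98 under ATRA and 13.56 in the control, so that ATRA was just under 1.5-fold lower than control (difference −0.58) and ATRA+NIC 1.62-fold higher than ATRA. RBL1, which encodes the pocket protein p107, was 1.86-fold lower in ATRA than in control cells, and E2F4 was 1.53-fold lower. The MuvB subunit gene LIN9 was nearly level, at 9.65 under ATRA+NIC, 9.62 under ATRA and 9.58 in the control. Of the 13, 8 were lower and 5 higher in ATRA than in control cells, none of them by 2-fold, with a median of −0.17. Of the 10 that passed the filter 7 were lower and 3 higher, beside 54.4% lower and 45.6% higher among all genes passing it. At least 1.5-fold lower were 3 of these 10 (8.99% of all genes). Whether so short a list differs from the background was not tested. Between ATRA+NIC and control the greatest differences were those of E2F4 (−0.34), the pocket protein gene RBL2 (−0.33) and the NF-Y subunit gene NFYA (−0.31).

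Other genes of mitosis and G2/M were taken from a list of 84 with no member of the 45. In ATRA cells 73 were lower than in control cells and 11 higher, with a median of −0.30, where 54.4% of all genes were lower. In ATRA+NIC cells 70 were higher than in ATRA cells and 14 lower, with a median of 0.29, where 55.8% of all genes were higher. By size, 5 were at least 2-fold lower in ATRA than in control cells (2.06% of all genes). The same number, 5, were at least 2-fold higher in ATRA+NIC than in ATRA cells (1.35% of all genes). At least 2-fold lower in ATRA than in control cells were KIF18B, a kinesin gene of microtubule length control (2.87-fold), ERCC6L, the gene of the anaphase DNA bridge helicase PICH (2.76-fold), SPC24 (2.13-fold) and SPC25 (2.02-fold), subunit genes of the NDC80 kinetochore complex, and GTSE1 (2.08-fold). At least 2-fold higher in ATRA+NIC than in ATRA cells were KIF18B (2.74-fold), ERCC6L (2.62-fold), SPC24 (2.48-fold), CCNF, the cyclin F gene (2.07-fold), and CENPM (2.02-fold). KIF18B had levels of 11.74 under ATRA+NIC, 10.28 under ATRA and 11.80 in the control. CKAP2L, a spindle protein gene, was the 1 gene of this list at least 2-fold away from control on the ATRA+NIC array. Its levels were 9.21 under ATRA+NIC, 9.67 under ATRA and 10.25 in the control.

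Genes of DNA replication and the G1/S phase had a like pattern. Of 45, 43 were lower in ATRA than in control cells (54.4% of all genes), with a median of −0.52. In ATRA+NIC cells 44 were higher than in ATRA cells (55.8% of all genes), with a median of 0.58. Between ATRA+NIC and control none was 2-fold higher (1.03% of all genes) or 2-fold lower (0.971%), and MCM3, a replicative helicase gene, differed most (−0.55). E2F2, a G1/S transcription factor gene, was 3.01-fold lower in ATRA than in control cells. GINS1 and GINS2, genes of the replicative helicase, were 2.72-fold and 2.37-fold lower, where 2.06% of all genes were at least 2-fold lower. PCNA, the sliding clamp gene, had levels of 13.64 under ATRA+NIC, 12.34 under ATRA and 13.27 in the control. At least 2-fold higher in ATRA+NIC than in ATRA cells (1.35% of all genes) were E2F2 (4.20-fold), PCNA (2.46-fold), GINS1 (2.37-fold) and LIG1, a DNA ligase gene (2.09-fold), with E2F1 just past the limit at 2.00-fold. CDC6 and DBF4, genes of replication licensing and of a kinase that starts replication, were higher in ATRA than in control cells and are named after their values were seen. CDC6 had a difference of 0.50 in ATRA cells against control and −0.58 in ATRA+NIC cells against ATRA. No difference between the lists was tested.

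Most cell cycle inhibitors and growth arrest genes had the opposite order on these arrays. Of 19, 14 were higher in ATRA than in control cells (45.6% of all genes), 8 of them at least 2-fold (3.83%). The other 5 were lower, 2 of them at least 1.5-fold (8.99%). In ATRA+NIC cells 14 were lower than in ATRA cells (44.2% of all genes), 8 at least 2-fold (3.74%), and 5 were higher, 1 at least 2-fold. That 1 gene did not pass the filter. Without the filter, 728 of 23595 genes were at least 2-fold higher in this comparison. Among the 16 that passed the filter, 13 were higher in ATRA than in control cells and 13 lower in ATRA+NIC than in ATRA cells. The median differences of all 19 were 0.74 in ATRA cells against control and −0.76 in ATRA+NIC cells against ATRA. Those of the 16 were 0.96 and −0.93. CDKN1A, the gene of the CDK inhibitor p21, had levels of 11.67 under ATRA+NIC, 13.80 under ATRA and 12.08 in the control. GADD45B, a stress and growth arrest gene, had levels of 8.03 under ATRA+NIC, 11.23 under ATRA and 8.51 in the control. Also at least 2-fold higher in ATRA than in control cells were SESN2 (3.75-fold), PLK3 (3.54-fold), BTG1 and GADD45A (2.58-fold each), BTG2 (2.22-fold) and CCNG2 (2.03-fold). Between ATRA+NIC and control GADD45A was lower by 0.90 and PLK3 by 0.82. CDKN1B, the p27 gene, was 2.85-fold lower in ATRA+NIC than in control cells (at least 2.32-fold with values under 50 set to 50), at levels under the filter on all arrays.

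**Figure D4:**
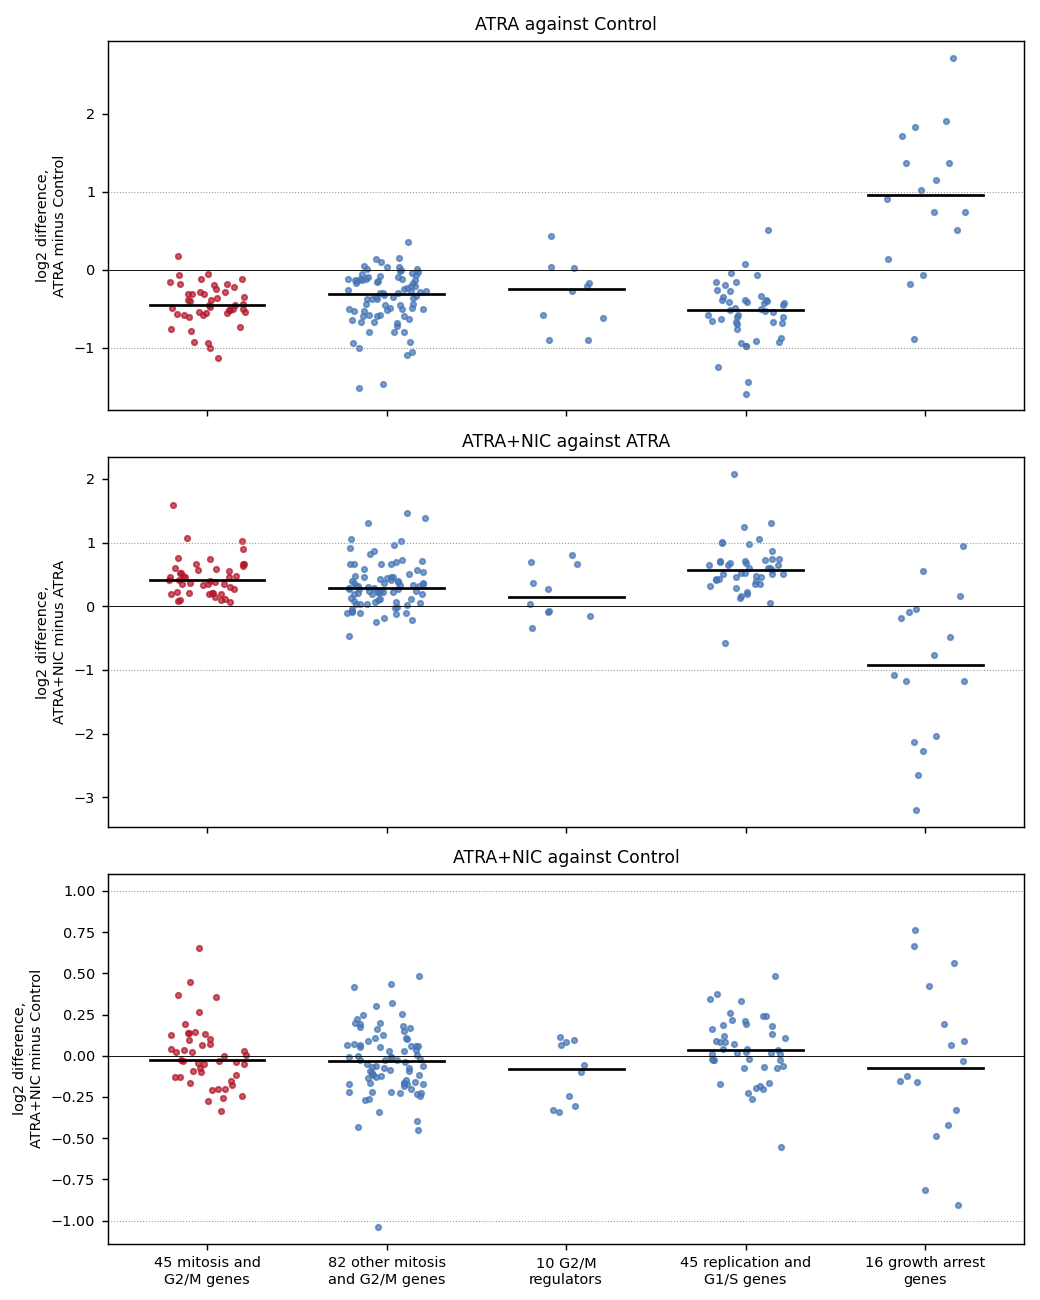
Log2 difference of each gene passing the filter (y axis, points spread sideways for visibility) for the 45 mitosis and G2/M genes and for 4 other lists, in 3 comparisons, with black bars at the medians and dotted lines at 2-fold. In ATRA against control the medians of the mitotic (−0.45) and replication genes (−0.52) lie under 0 and that of the growth arrest genes above it, and in ATRA+NIC against ATRA the order is turned.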

How the data were processed

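HaCaT RNA was hybridised to 3 single-colour NimbleGen arrays, 1 per group. The deposited values are RMA intensities on a linear scale, summarised by the authors over 3 probes per transcript, per the file headers. The submitters' software was not given in the sources used here. Of 45033 transcripts, 42947 carried a gene name. Entrez numbers were matched to a RefSeq table (20230 of 23619). Intensities were taken to log2 without further scaling and averaged per gene with Python 3.11.15 and pandas 2.3.3. The filter kept 12467 of 23595 genes at or above the median level (7.95) on at least 1 array. With 1 array per group a difference was described by its size, 2-fold or 1.5-fold, and the steps were tested on simulated data.

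All members may be named, and those at least 1.5-fold changed get full values. In other lists, genes at least 2-fold changed, or the 3 most changed, and a fixed set were eligible. The members and lists were chosen with earlier results of these data known. Alternatives changed the transcript summary, filter, offset, floor, values and centring.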

Additional observations from a re-analysis of the deposited data

How the results depend on the processing

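Medians of the 45 genes kept their direction and moved little under the 10 alternative settings, between −0.45 and −0.39 for ATRA against control and between 0.37 and 0.42 for ATRA+NIC against ATRA, while that for ATRA+NIC against control lay between −0.04 and 0.02, on both sides of 0. Counts past a size moved more, and the share of all genes under each setting is not given here beside them. With the brightest transcript of each gene, 3 genes were higher and 14 at least 1.5-fold lower in ATRA than in control cells, 2 were lower in ATRA+NIC than in ATRA cells, and 1 was at least 2-fold higher in ATRA+NIC than in control cells. With the filter at the 75th percentile, which kept 37 of the 45, 5 were at least 1.5-fold lower in ATRA than in control cells and 0 at least 1.5-fold higher in ATRA+NIC than in control cells. An offset of 100 left 1 gene at least 2-fold higher in ATRA+NIC than in ATRA cells, and centring each array on its median gene level, a shift of at most 0.02, brought 2 genes to 2-fold lower in ATRA than in control cells. With only the 32 genes read by several transcripts, chosen as an alternative after seeing the data, 0 were at least 2-fold and 5 at least 1.5-fold lower in ATRA than in control cells, 7 were at least 1.5-fold higher in ATRA+NIC than in ATRA cells, and 14 were lower in ATRA+NIC than in control cells. These last counts fall in part because fewer genes enter, and the cause of the others was not tested. Leaving out the 4 genes under older names, also added after seeing the data, moved no count by over 1.5 times. No paired analysis was possible because each group has 1 array, and the number of arrays limits the precision of every value.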
